A study of Mus musculus with 36 samples.

Results

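Mitotic kinesins are motor proteins that cells use chiefly while they divide. Each couples the breakdown of ATP to movement along microtubules or to the removal of tubulin from microtubule ends, and together they push spindle poles apart, hold chromosomes on the spindle, correct wrong attachments and build the midzone where the cell is cut. Their transcripts accumulate in G2 and M phase and are scarce in resting tissue such as the healthy adult lung, so in a whole-lung sample they are a trace signal of the cells in division. The 10 genes described here, *Kif2c*, *Kif4*, *Kif11*, *Kif14*, *Kif15*, *Kif18b*, *Kif20a*, *Kif20b*, *Kif22* and *Kif23*, were taken by symbol from the 18116 genes of the female and the 18291 genes of the male count table, and all 10 were found in both.

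The left lungs of 36 wild-type C57BL/6 mice were sequenced, 3 female and 3 male mice in each of 6 groups. The mice received saline, BP crude oil, the dispersant Corexit 9500, the dispersant Corexit 9527, or either dispersant mixed with oil (9500+oil and 9527+oil). They were dosed 3 times, on days 0, 7 and 13, and the lungs were taken on day 14. They were 8 weeks old at the start, and each dose was 50 µL of a saline-accommodated fraction at 0.1 of full strength, given by oropharyngeal aspiration according to the methods and by intratracheal instillation according to the labels. Male and female mice were treated separately, so a difference between the sexes and one between the treatment rounds cannot be told apart. The series tags the tissue as lung, and the surfactant and other alveolar type 2 genes summed to between 9184 and 25720 counts per 1000000 counts (CPM) in the 36 mice. Beyond the tissue and treatment nothing in the labels ties a library to a cell type, and in bulk RNA more dividing cells and more transcript per cell cannot be told apart.

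Total counts were 17501180 to 30011557 per mouse. Over 360 values the kinesins had a median of 88 counts and at most 476, so each level rests on few reads. In 4 female libraries, saline mouse 3, oil mouse 6, Corexit 9527 mouse 11 and 9500+oil mouse 14, mitochondrial transcripts took 20.67% to 45.09% of the counts, against 5.27% to 11.34% in the other 32. The main results that rest on those libraries are given with and without them. A level listed at 0 by an estimating program can be a failed estimate, and 6 of the 360 values are 0, 5 of them in those 4 libraries.

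All 10 are protein-coding genes. On GRCm38, with GENCODE M21 as the annotation, they lie at chr4:117159639-117182639 (*Kif2c*), chrX:100625737-100727214 (*Kif4*), chr19:37376403-37421859 (*Kif11*), chr1:136466343-136531511 (*Kif14*), chr9:122951046-123018733 (*Kif15*), chr11:102905529-102925124 (*Kif18b*), chr18:34624613-34633277 (*Kif20a*), chr19:34922361-34975745 (*Kif20b*), chr7:127027729-127042471 (*Kif22*) and chr9:61915905-61946774 (*Kif23*). *Kif11* and *Kif20b* share chromosome 19 and *Kif15* and *Kif23* share chromosome 9, but the 10 form no cluster. Per kilobase of the longest coding transcript, *Kif20a* stood at 1.32 CPM in female and 1.29 CPM in male saline lungs, whereas *Kif14* was lowest at 0.176 and 0.216 CPM.

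The promoters of these genes shared a sequence that the choice of members did not use. Genes of late G2 and mitosis are known for a short promoter element, the cell cycle genes homology region with the letters TTTGAA, which MuvB complexes bind through LIN54 and which often stands downstream of CCAAT boxes bound by NF-Y. RefSeq windows of 250 bases before to 50 bases after a gene start (GRCm38.p6) were at hand for 9 of the 10 genes, *Kif20a* having none. The RefSeq start lay within 60 bases of the edge of the GENCODE span for 6 of the 9, but 328 bases inside the span for *Kif4*, 1505 for *Kif14* and 3867 for *Kif2c*. TTTGAA was found on either strand in 9 of the 9, against 17.9% of 32851 mouse windows of that length. In 7 of the 9 it lay within 30 bases of the start, against 2.9% of all windows. CCAAT on either strand was found in 6 of 9 windows, against 37.4%, and both motifs stood together in the same 6, against 7.52% of windows with CCAAT and either TTTGAA or TTCGAA. The variant TTCGAA and the E2F core GCGGGAA were in 0 of the 9 windows, with 1.56% and 4.6% of all windows holding them. These matches are letters in a window and not measured binding.

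The 7 promoters with the element beside the start are shown from 60 bases before to 25 bases after the start base, read 5′ to 3′ on the strand of the gene. Capitals mark TTTGAA and CCAAT or their reverse complements, TTCAAA and ATTGG. *Kif4* is at chrX:100626005-100626090 (+), *Kif11* at chr19:37376322-37376407 (+), *Kif15* at chr9:122951021-122951106 (+), *Kif18b* at chr11:102925099-102925184 (-), *Kif20b* at chr19:34922298-34922383 (+), *Kif22* at chr7:127042395-127042480 (-) and *Kif23* at chr9:61946774-61946859 (-).
Kif4: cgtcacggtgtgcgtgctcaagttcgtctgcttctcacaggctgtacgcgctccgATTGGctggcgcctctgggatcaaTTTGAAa
Kif11: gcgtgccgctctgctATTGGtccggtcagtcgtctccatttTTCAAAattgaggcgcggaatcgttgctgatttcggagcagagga
Kif15: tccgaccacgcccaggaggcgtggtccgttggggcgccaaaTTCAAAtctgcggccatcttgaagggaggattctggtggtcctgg
Kif18b: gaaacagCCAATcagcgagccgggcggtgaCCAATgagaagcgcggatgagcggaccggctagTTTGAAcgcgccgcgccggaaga
Kif20b: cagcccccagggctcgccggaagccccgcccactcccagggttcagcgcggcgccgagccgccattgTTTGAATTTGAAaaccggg
Kif22: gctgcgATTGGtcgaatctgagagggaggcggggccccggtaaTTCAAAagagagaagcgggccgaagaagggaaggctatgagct
Kif23: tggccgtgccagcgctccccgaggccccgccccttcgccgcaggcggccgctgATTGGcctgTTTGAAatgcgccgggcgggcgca

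Counted from the start base as 0, the element began at -19 in *Kif11* and in *Kif15*, at -17 in *Kif22*, at 2 in *Kif23*, at 3 in *Kif18b*, at 7 and again at 13 in *Kif20b*, where the repeats abut, and at 19 in *Kif4*. The remaining windows held it farther upstream, at -103 in *Kif2c* and -228 in *Kif14*. *Kif15* and *Kif22* had a further match at -234 and at -215.

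Corexit 9527 was the treatment with the highest kinesin levels. Summed over the 10 genes, the level in female mice was 33.4, 31.1 and 33.4 CPM with saline and 75.7, 74.7 and 71.7 CPM with Corexit 9527. In male mice it was 35.8, 25.02 and 31.2 CPM with saline and 91.1, 101.3 and 47.8 CPM with Corexit 9527. No Corexit 9527 mouse of either sex overlapped the saline mice of its sex, and male mouse 12 lay well below its 2 group mates.

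**Figure D1:**
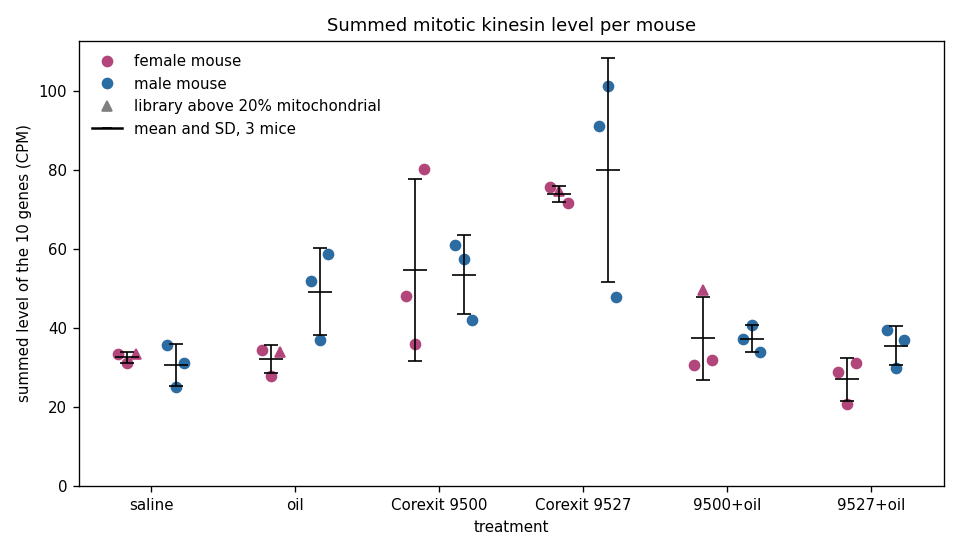
Summed level of the 10 mitotic kinesin genes in CPM (y axis) for each mouse by treatment (x axis), with female mice in magenta, male mice in blue, triangles for the libraries above 20% mitochondrial counts, and black bars for the mean and SD of 3 mice. The 6 Corexit 9527 mice sit between 47.8 and 101.3 CPM and the 6 saline mice between 25.02 and 35.8 CPM. The 9527+oil mice, at 20.9 to 39.5 CPM, overlap saline, in females only through mouse 18 (31.2 CPM, with the lowest saline female at 31.1 CPM).

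With Corexit 9500 the sums were 48.2, 35.9 and 80.4 CPM in female and 61.0, 57.6 and 42.2 CPM in male mice. With oil they were 34.6, 28.0 and 34.0 CPM in female and 52.0, 37.1 and 58.7 CPM in male mice. With 9500+oil the sums were 30.7, 49.6 and 32.0 CPM in female and 37.3, 40.8 and 34.1 CPM in male mice, and with 9527+oil 29.0, 20.9 and 31.2 CPM in female and 39.5, 30.03 and 37.1 CPM in male mice. Gene by gene, the highest group mean was that of Corexit 9527 for 7 members in female mice, the other 3 (*Kif4*, *Kif18b* and *Kif22*) being highest with Corexit 9500, and for 9 members in male mice, *Kif20b* being highest with oil. Corexit 9500 had the second highest mean for 7 members in female and 8 in male mice.

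Against saline, over both sexes with sex as a covariate, each of the 10 kinesins was higher in the Corexit 9527 mice, with a median log2 fold change of 1.32, or 2.49-fold, while the median of the 15328 genes tested was 0.01 and 52.0% of them were higher. By edgeR's quasi-likelihood F-test with Benjamini-Hochberg adjustment over all genes, 1 member, *Kif20a*, passed an adjusted p of 0.05, where 0.0326% of all genes did. At an unadjusted p under 0.05, 6 members were higher (*Kif2c*, *Kif4*, *Kif11*, *Kif15*, *Kif20a* and *Kif23*), against 2.26% of all genes. In 4 members (*Kif2c*, *Kif11*, *Kif15* and *Kif20a*) every treated mouse stood above every saline mouse of its sex, which held for 0.946% of all genes. The call for *Kif20a* held without female saline mouse 3 (adjusted p = 0.0463, edgeR) and without male Corexit 9527 mouse 12 (adjusted p = 0.0195) and was lost without any of the other 10, the highest adjusted p being 0.257, though its log2 fold change stayed between 1.68 and 1.93. Without the 4 libraries rich in mitochondrial transcripts the median was 1.37 and 8 members passed, all but *Kif14* and *Kif20b*, but 2.13% of all 15531 genes then passed too, whereas with DESeq2's size factors or with no filter on low counts no member did.

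**Figure D2:**
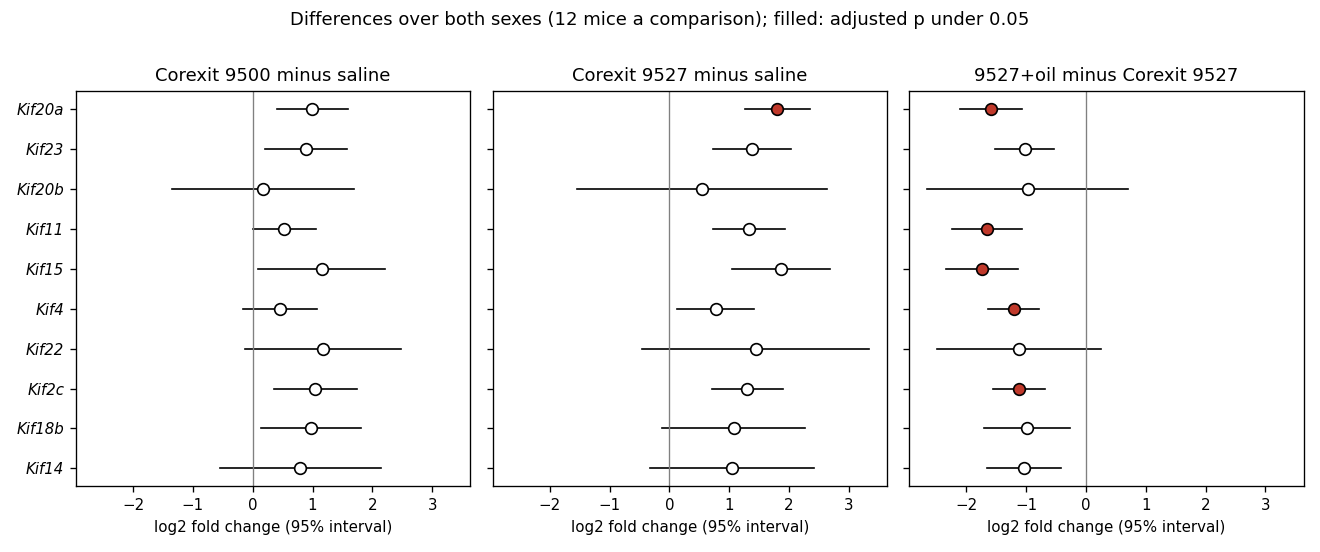
Log2 fold change (x axis) of each kinesin (y axis) over both sexes in 3 comparisons of 12 mice, with bars for the 95% interval and filled points for an adjusted p under 0.05. All 10 points lie right of 0 with either dispersant and left of 0 where oil was added to Corexit 9527, and the bars of *Kif20b* are the widest in each comparison.

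The motors of cytokinesis are given first. *Kif20a* carries the Aurora B complex from the chromosomes to the midzone. Its level was 4.95, 5.11 and 4.54 CPM in female and 5.42, 3.89 and 4.87 CPM in male saline mice, and 14.2, 21.9 and 14.2 CPM in female and 18.4, 22.8 and 9.36 CPM in male Corexit 9527 mice. Every treated mouse was thus above every saline mouse, and the log2 fold change was 1.80 ± 0.25 (SE, n = 6 against 6, adjusted p = 0.0483, edgeR).

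*Kif23* is the motor of centralspindlin, the complex with *Racgap1* that bundles midzone microtubules and recruits the contractile ring. In female mice it had 2.44, 3.41 and 1.63 CPM with saline and 7.79, 9.72 and 10.4 CPM with Corexit 9527, whereas male saline mice already stood at 7.12, 5.99 and 5.05 CPM and male Corexit 9527 mice at 12.9, 14.0 and 6.98 CPM. The female groups were far apart and the male groups touched, since male Corexit 9527 mouse 12 lay under male saline mouse 1. Its log2 fold change of 1.39 ± 0.30 did not pass (adjusted p = 0.344, edgeR).

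*Kif20b* is a motor needed for the last steps of cytokinesis, and *Kif14* binds *Prc1* and citron kinase at the midbody. They were the members that did not pass adjustment with Corexit 9527 without the 4 libraries rich in mitochondrial transcripts. *Kif20b* was listed at 0 in female saline mouse 3, in female 9500+oil mouse 14 and in male Corexit 9527 mouse 11, and a count of 0 there allows up to 3 counts, or 0.349, 0.198 and 0.146 CPM, by counting error alone. Male mouse 11 had the highest level of 7 of the 10 kinesins in its group, so its *Kif20b* value went against the rest of the same library. The other male Corexit 9527 mice had 5.56 and 2.07 CPM and the male saline mice 1.34, 1.89 and 4.20 CPM, and the log2 fold change over both sexes was 0.54 with a 95% interval from -1.54 to 2.63. *Kif14* had 2.92, 1.80 and 0 CPM in female and 2.64, 1.95 and 1.22 CPM in male saline mice, against 3.73, 1.69 and 3.57 CPM and 5.51, 5.39 and 2.38 CPM with Corexit 9527. Its groups overlapped in both sexes (log2 fold change 1.05, 95% interval -0.33 to 2.42).

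Of the spindle motors, *Kif11* (Eg5) slides antiparallel microtubules to separate the poles, and *Kif15* can take over that task. *Kif11* had 4.02, 3.96 and 5.94 CPM in female and 3.18, 3.10 and 3.84 CPM in male saline mice, and 8.50, 17.0 and 9.39 CPM in female and 8.81, 11.7 and 5.17 CPM in male Corexit 9527 mice. Within each sex the groups did not overlap, and the log2 fold change was 1.33 ± 0.28 (adjusted p = 0.301, edgeR). *Kif15* had 1.46, 1.86 and 1.28 CPM in female and 2.79, 0.683 and 2.12 CPM in male saline mice, and 5.70, 6.76 and 6.97 CPM in female and 6.86, 8.16 and 2.85 CPM in male Corexit 9527 mice. With a log2 fold change of 1.86 ± 0.38 it had the largest estimate of the 10, or 3.64-fold, and male mouse 12 cleared the highest saline male by little.

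*Kif4* and *Kif22* are chromokinesins, motors that sit on chromosome arms. *Kif4* also works with *Prc1* to set the length of the midzone. Its levels were 5.89, 5.17 and 9.43 CPM in female and 5.03, 2.94 and 3.97 CPM in male saline mice, and 9.79, 7.18 and 9.33 CPM in female and 9.96, 11.7 and 5.64 CPM in male Corexit 9527 mice. The female groups overlapped through saline mouse 3, 1 of the 4 libraries rich in mitochondrial transcripts, and without those libraries the log2 fold change went from 0.77 (adjusted p = 1.00) to 1.03 (adjusted p = 0.0336, edgeR).

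*Kif22* had 2.19, 1.98 and 0 CPM in female and 3.93, 1.63 and 1.99 CPM in male saline mice, and 7.07, 0 and 4.39 CPM in female and 8.11, 9.08 and 3.67 CPM in male Corexit 9527 mice. Both zeros fell in libraries rich in mitochondrial transcripts. The interval of its log2 fold change, from -0.45 to 3.34, was the widest after that of *Kif20b*, and without the 4 libraries the log2 fold change of 1.47 passed (adjusted p = 0.0328, edgeR).

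*Kif2c* and *Kif18b* shorten microtubules. *Kif2c* (MCAK) removes faulty attachments at the centromere, and *Kif18b* acts with it on astral microtubules. *Kif2c* had 2.52, 2.54 and 3.38 CPM in female and 1.69, 1.84 and 1.72 CPM in male saline mice, and 6.03, 4.86 and 4.91 CPM in female and 7.01, 6.51 and 3.72 CPM in male Corexit 9527 mice. All treated mice were higher than all saline mice (log2 fold change 1.31 ± 0.27, adjusted p = 0.301, edgeR).

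*Kif18b* was the member whose sexes differed most. Male saline mice had 2.64, 1.10 and 2.21 CPM and male Corexit 9527 mice 8.01, 11.7 and 6.00 CPM, without overlap. Female saline mice had 2.92, 2.88 and 7.22 CPM and female Corexit 9527 mice 7.64, 1.58 and 4.12 CPM, and these overlapped throughout. The log2 fold change was 2.11 in male and 0.02 in female mice, and the test of the difference gave 2.08, which did not pass (adjusted p = 1.00, edgeR). *Kif18b* was the only member with an unadjusted p under 0.05 for a stronger response in males, against 0.157% of all genes. The highest saline and the lowest Corexit 9527 value in females were both from libraries rich in mitochondrial transcripts, and without the 4 libraries its log2 fold change over both sexes was 1.66 in place of 1.07 and the difference between the sexes was 1.09, no longer at an unadjusted p under 0.05.

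**Figure D3:**
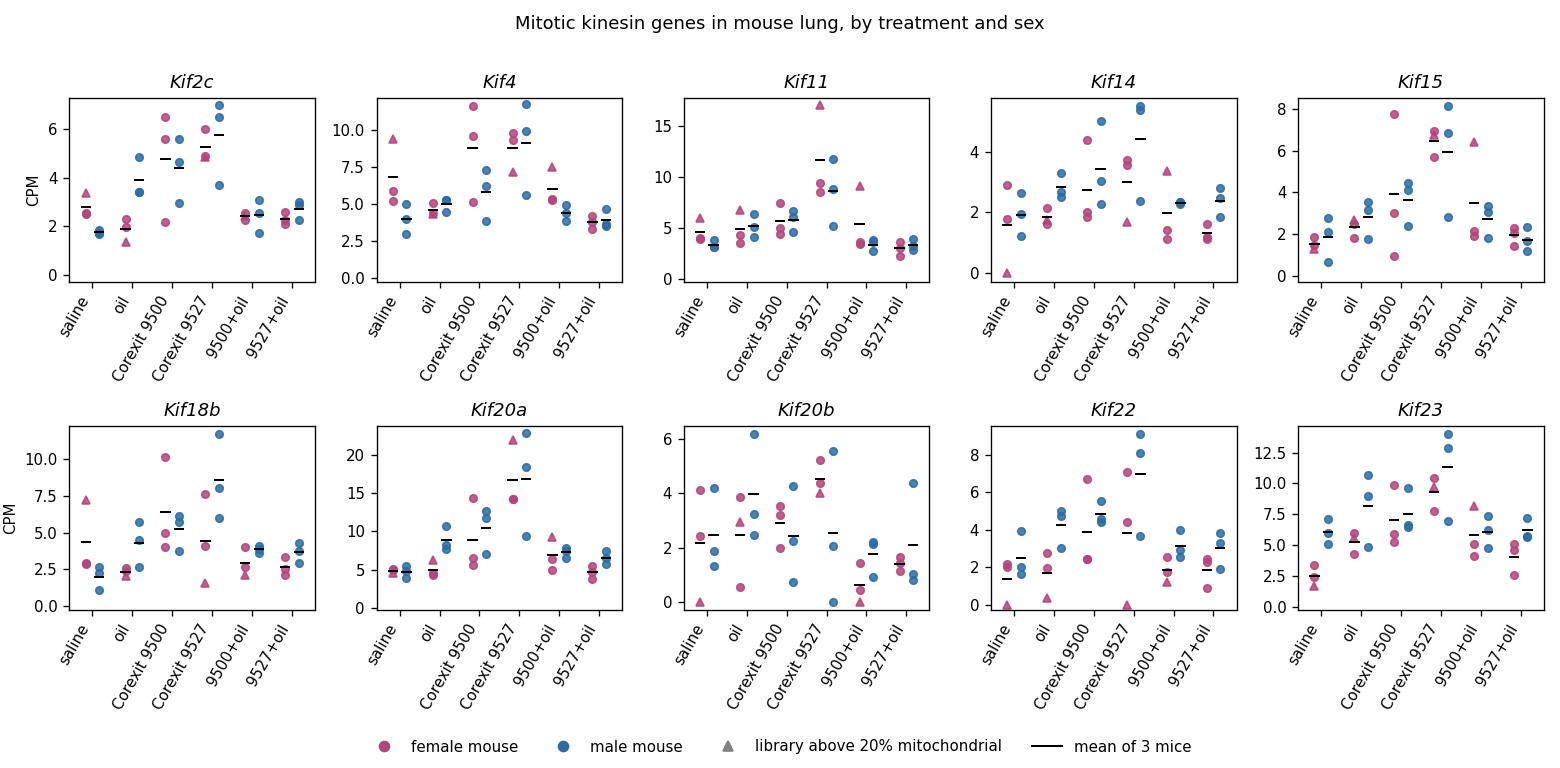
Level in CPM (y axis, a scale of its own in each panel) of each kinesin gene in every mouse by treatment (x axis), with female mice in magenta, male mice in blue, triangles for libraries above 20% mitochondrial counts and bars for the mean of 3 mice. For most genes the Corexit 9527 points stand highest and the 9527+oil points lie lower, while *Kif20b* shows no such order in male mice. The 9527+oil points of *Kif2c*, *Kif18b* and *Kif20a* lie above every saline point in males, against 5.73% of all genes. Those of *Kif4* and *Kif11* lie below every saline point in females, against 7.05%.

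Within the sexes, all 10 members were higher with Corexit 9527 in female mice (median log2 fold change 1.19) and in male mice (1.41), but none passed an adjusted p of 0.05 in either, the lowest being 0.0619 for *Kif20a* in males (edgeR). By DESeq2, 2 members passed in females, against 0.04% of all genes, and 7 in males, against 3.93%. In females 4 members (*Kif11*, *Kif15*, *Kif20a* and *Kif23*) had an unadjusted p under 0.05 for a higher level, against 0.247% of all genes, and 5 did not overlap saline, against 2.92%. In males 9 members, all but *Kif20b*, had an unadjusted p under 0.05, against 7.96% of all genes, and 6 did not overlap saline, against 10.5%. Male Corexit 9527 mouse 12 had the lowest level of 9 of the 10 kinesins in its group, and without it 6 members passed in males, against 1.39% of all genes.

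With Corexit 9500 all 10 kinesins were again higher than with saline over both sexes, with a median log2 fold change of 0.93 against 0.03 for all genes. No gene passed an adjusted p of 0.05 (0% of 15422, with 5 by DESeq2, none of them a member), and the lowest for a member was 0.972 (edgeR). At an unadjusted p under 0.05, 6 members were higher (*Kif2c*, *Kif11*, *Kif15*, *Kif18b*, *Kif20a* and *Kif23*), against 1.3% of all genes, and *Kif20a* and *Kif22* did not overlap saline, against 0.648%. *Kif20a* was 6.47, 5.62 and 14.4 CPM in female and 11.8, 12.7 and 7.01 CPM in male Corexit 9500 mice, with a log2 fold change of 1.00 ± 0.27. In the female group mouse 9 had the highest level of 9 of the 10 kinesins and mouse 8 the lowest of 8, and without mouse 9 the female median fell from 0.77 to 0.31. Within the sexes 1 member (*Kif23*) had an unadjusted p under 0.05 in females, against 0.155% of all genes, and 5 (*Kif2c*, *Kif11*, *Kif18b*, *Kif20a* and *Kif22*) in males, against 4% of all genes.

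The 2 dispersants given alone were also compared with each other. All 10 kinesins were higher with Corexit 9527 than with Corexit 9500 over both sexes, by a median log2 difference of 0.34 (0.27 in females and 0.58 in males, and 0.54 over both with quality weights on the libraries in limma voom), and 2 (*Kif11* and *Kif20a*) had an unadjusted p under 0.05, against 2.13% of all genes. The lowest adjusted p was 0.800 (edgeR), and for *Kif11*, at 0.80, the 95% interval ran from 0.21 to 1.39, so the treatments at the top of the order were not told apart after adjustment. Against oil, Corexit 9527 was higher in all 10 members with a median of 0.96, and 8 had an unadjusted p under 0.05, against 2.11% of all genes, with a lowest adjusted p of 0.421 for *Kif20a*. These comparisons share the Corexit 9527 mice with the one against saline.

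Oil alone gave different values in the sexes. In male mice all 10 kinesins were higher than with saline, by a median log2 fold change of 0.64. At an unadjusted p under 0.05, 4 were higher (*Kif2c*, *Kif11*, *Kif18b* and *Kif20a*), against 5.75% of all genes, and the same 4 did not overlap saline, against 7.44%. In female mice 5 were higher and 5 lower, with a median of 0.08, and *Kif2c*, *Kif4* and *Kif18b* were lower in every oil mouse than in every saline mouse, against 1.01% of all genes, while *Kif23* was higher in every oil mouse (5.97, 4.25 and 5.58 CPM), against 2.93%. Without the 4 libraries the female median was -0.21, and the log2 fold changes of *Kif2c*, *Kif4* and *Kif18b* were -0.24, -0.23 and -0.23 in place of -0.64, -0.66 and -0.98. *Kif2c* for example had 1.99, 2.29 and 1.35 CPM in female and 3.41, 3.41 and 4.88 CPM in male oil mice. The difference between the sexes was 1.74 for *Kif2c* (adjusted p = 1.00, edgeR) and 2.01 for *Kif18b* (adjusted p = 1.00), these 2 being the members with an unadjusted p under 0.05 where 1.07% of all genes had one in that direction. These differences were 1.40 and 1.35 without the 4 libraries. Over both sexes 1 member, *Kif23*, had an unadjusted p under 0.05 for a higher level with oil, against 0.28% of all genes, and none passed after adjustment.

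**Figure D4:**
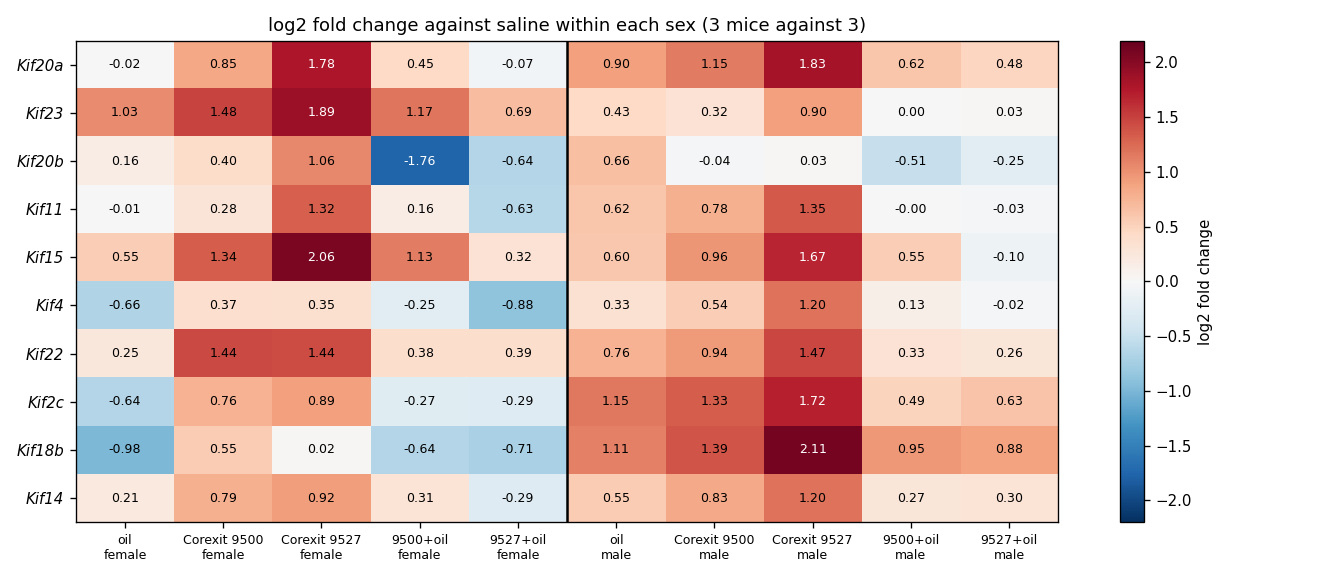
Log2 fold change against saline, as colour and number, of each kinesin (rows) for the 5 treatments in female mice (left of the line) and male mice (right of the line), 3 mice against 3. The Corexit 9527 columns are the reddest in both sexes, while *Kif4*, *Kif2c* and *Kif18b* are blue in oil, 9500+oil and 9527+oil females and red in the males but for *Kif4* with 9527+oil, at -0.02, and *Kif18b* in 9500+oil females turns from -0.64 to 0.20 without the 4 libraries.

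Where oil was added to a dispersant, the kinesin levels were lower than with the dispersant alone. With 9527+oil all 10 were lower than with Corexit 9527 over both sexes, by a median log2 difference of -1.12, or 0.459-fold, whereas the median of all 15396 genes was 0.01. An adjusted p of 0.05 was passed by 5 members (*Kif2c*, *Kif4*, *Kif11*, *Kif15* and *Kif20a*), against 0.559% of all genes. At an unadjusted p under 0.05, 8 were lower, all but *Kif20b* and *Kif22*, against 8.73% of all genes, and the 5 named were also lower in every 9527+oil mouse than in every Corexit 9527 mouse of the same sex, against 3.39%.

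*Kif20a*, for example, had 4.75, 3.81 and 5.49 CPM in female and 6.50, 5.78 and 7.47 CPM in male 9527+oil mice. These levels lay below the 9.36 CPM of the lowest Corexit 9527 mouse, with a log2 difference of -1.59 ± 0.24 (adjusted p = 0.0259, edgeR). *Kif15* had 2.31, 1.46 and 2.05 CPM in female and 1.21, 1.65 and 2.35 CPM in male 9527+oil mice, a log2 difference of -1.75 ± 0.28 (adjusted p = 0.0259). *Kif11*, at 2.31 to 3.91 CPM in the 6 mice, differed by -1.65 ± 0.27, *Kif4* by -1.21 ± 0.20 and *Kif2c* by -1.12 ± 0.20 (adjusted p = 0.0267, 0.0267 and 0.0315, edgeR). The 5 calls were lost when any mouse but 2 was left out: without male Corexit 9527 mouse 12 there were 6, against 0.823% of all genes, without female Corexit 9527 mouse 11 there were 9, against 6.63%, and without any other there were none, while the median stayed between -1.24 and -1.04. Of the 4 libraries rich in mitochondrial transcripts, mouse 11 is the one in this comparison, and the 9 that passed without it were all but *Kif20b*.

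Within the sexes the median difference between 9527+oil and Corexit 9527 was -1.21 in females and -1.21 in males, and no member passed an adjusted p of 0.05 in either by edgeR. By DESeq2 6 members passed in females, against 1.18% of all genes, and 5 in males, against 1.83%, and without the 4 libraries 5 passed in females, against 0.757%. At an unadjusted p under 0.05, 8 members were lower in females, all but *Kif18b* and *Kif22*, against 4.68% of all genes, and 9 in males, all but *Kif20b*, against 6.44%. For the other dispersant, 9500+oil was lower than Corexit 9500 in all 10 members with a median of -0.50, 3 of them (*Kif2c*, *Kif18b* and *Kif22*) at an unadjusted p under 0.05, against 1.38% of all genes, and none after adjustment in edgeR or DESeq2.

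The mixtures were also compared with saline. With 9527+oil 6 members were higher and 4 lower over both sexes, with a median of 0.10 (-0.04 without male saline mouse 2 and 0.21 without female 9527+oil mouse 17), and none had an unadjusted p under 0.05 for a higher level, against 1.06% of all genes. The median was -0.29 in females, with 7 of the 10 lower, and 0.15 in males, with 6 higher. In females *Kif4* and *Kif11* were lower in every mouse than with saline, against 7.05% of all genes. In males *Kif2c*, *Kif18b* and *Kif20a* were higher in every mouse than with saline, against 5.73%. Of these, *Kif2c* and *Kif18b* had an unadjusted p under 0.05, against 3.54%. The difference between the sexes had an unadjusted p under 0.05 for *Kif2c* and *Kif18b*, against 2.13% of all genes. The values without the 4 libraries were 0.76 for *Kif2c* and 1.00 for *Kif18b*, in place of 0.91 and 1.57, and *Kif18b* no longer had such a p. With 9500+oil 8 members were higher, with a median of 0.24 (0.23 in females, where it was -0.00067 without the 4 libraries, and 0.30 in males), and 1 (*Kif20a*) had an unadjusted p under 0.05, against 0.202%. In females *Kif15* and *Kif23* did not overlap saline, against 1.55%, and in males *Kif18b* and *Kif20a* had an unadjusted p under 0.05, against 5.19%. *Kif23* had a difference of -1.20 between the sexes with 9500+oil, the response being larger in females (adjusted p = 1.00, edgeR), and was the only member with an unadjusted p under 0.05 in that direction, against 0.235% of all genes. That difference was -0.66 without the 4 libraries, no longer at such a p.

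Among themselves most of the kinesins varied together from mouse to mouse. Over the 18 male mice the 45 pairs of members had a median Pearson correlation of 0.81 between their log2 CPM, and *Kif20a* followed the others most, with a mean of 0.75. *Kif20b* had a mean of -0.29 with the other 9. Over the 18 female mice the median was 0.37, and over the 14 without the libraries rich in mitochondrial transcripts it was 0.78. The mice share treatments and the libraries share depth, so these correlations describe the samples and carry no test.

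Among the 5 genes whose level followed the mean of the members most closely, of 13877 compared over the 18 mice of each sex, were *Racgap1* (0.90, the lower of the correlations in the 2 sexes), *Kntc1* (0.90), *Uhrf1* (0.89) and *Cep55* (0.89). *Kntc1* is a kinetochore checkpoint protein, *Uhrf1* a factor that maintains DNA methylation at replication, and *Cep55* a midbody scaffold. Without the 4 libraries the first 5 were *Ccna2*, *Top2a*, *Mki67*, *Uhrf1* and *Prc1*, with 0.96 to 0.97, and only *Uhrf1* was on both lists.

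The partners of these motors had values like theirs. Of the 15 genes of the spindle and midbody list, all 15 had a higher estimate with Corexit 9527, the median log2 fold change against saline being 1.21, and 15 had an unadjusted p under 0.05, where 2.26% of all genes had. *Cep55*, with 1.72 ± 0.24, and the spindle protein *Hmmr*, with 1.89 ± 0.27, passed after adjustment (adjusted p = 0.0483 for both, edgeR). With 9527+oil all 15 were lower than with Corexit 9527, by a median of -1.31, and 9 passed. The 10 proliferation markers had a median of 1.27 with Corexit 9527, led by *Top2a* (topoisomerase II alpha, 1.59 ± 0.24, adjusted p = 0.0676) and *Ccna2* (cyclin A2, 1.68 ± 0.29, adjusted p = 0.168), with 8 at an unadjusted p under 0.05 and none past adjustment. Without the 4 libraries 14 of the 15 partners (median 1.41) and 9 of the 10 proliferation markers (median 1.44) passed with Corexit 9527, where 2.13% of all genes did.

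The factors that act on the promoter element had smaller estimates. Of 7 genes for MuvB subunits and their activators, 6 were higher with Corexit 9527, with a median of 0.31, and 1 had an unadjusted p under 0.05, *Foxm1*, the forkhead factor of G2/M genes, at 1.13 ± 0.43. *Lin9*, a MuvB subunit, was at 0.44 ± 0.24. *Foxm1* levels were 1.98 to 11.4 CPM in female and 8.72 to 12.3 CPM in male saline mice and 4.12 to 20.1 CPM and 16.9 to 31.9 CPM with Corexit 9527, so only the male groups were apart.

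Kinesins that serve interphase cells had list medians near 0. The 17 transport kinesins, which carry vesicles and organelles, had a median log2 fold change of -0.0045 with Corexit 9527, 8 higher and 9 lower, and none had an unadjusted p under 0.05. The lowest p values were those of *Kif17* (-1.14 ± 0.60) and *Kifc2* (-0.28 ± 0.28). The 5 kinesins of cilia (*Kif6*, *Kif7*, *Kif9*, *Kif19a* and *Kif27*) were all lower, by a median of -0.17, again with none at that p. Of the 4 further kinesins with a part in mitosis, *Kifc1* was at 1.30 ± 0.88, the kinetochore motor *Cenpe* at 0.77 ± 0.49, *Kif18a* at 0.33 ± 0.56 and *Kif2a*, which also acts in neurons, at -0.13 ± 0.42, none at an unadjusted p under 0.05. Their median of 0.55 became 1.02 without the 4 libraries, where *Kifc1* and *Cenpe* passed, against 2.13% of all genes. In males *Kifc1* (1.54), *Cenpe* (1.28) and *Kif18a* (0.88) had an unadjusted p under 0.05 for a higher level, against 7.96% of all genes. *Kif18a* was 18.7 CPM in 1 female saline mouse and 2.82 and 2.92 CPM in the others.

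**Figure D5:**
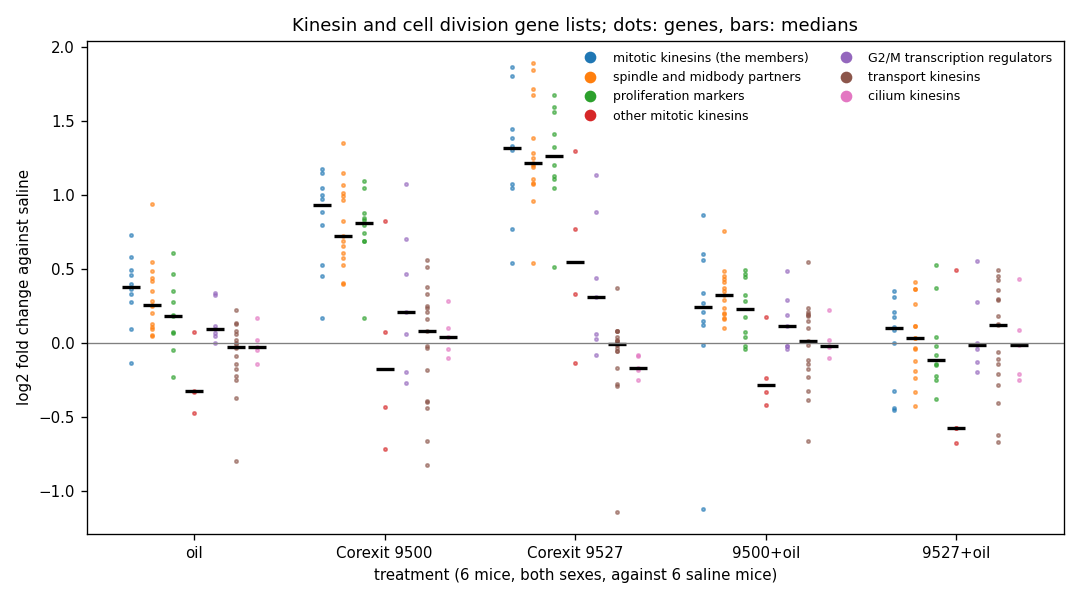
Log2 fold change against saline (y axis) of each gene (dots) in 7 lists, with a bar for the median of a list, for the 5 treatments (x axis) over both sexes, 6 mice against 6. The members, their partners and the proliferation markers have medians of 1.21 to 1.32 with Corexit 9527, while those of the transport kinesins reach at most 0.12 and those of the cilium kinesins lie between -0.17 and 0.04.

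Markers of macrophages were higher with Corexit 9527 than with saline or 9527+oil, as the kinesins were, but went otherwise with other treatments. The 6 of 7 macrophage genes in both tables summed to 772.4 to 860.8 CPM in female and 708.6 to 882.2 CPM in male saline mice, 1293 to 2354 CPM and 949.5 to 1774 CPM with Corexit 9527, and 506.1 to 574.6 CPM and 619.8 to 912.2 CPM with 9527+oil. All 6 were higher with Corexit 9527, 3 of them at an unadjusted p under 0.05, against 2.26% of all genes, led by *Chil3* (1.33 ± 0.29). None passed adjustment over both sexes, and 3 did without the 4 libraries, against 2.13% of all genes. In males *Cd68* passed (0.83, adjusted p = 0.0468, edgeR), against 0.114%. In male mice the macrophage genes summed to 1067 to 1150 CPM with oil and 779.4 to 1027 CPM with Corexit 9500, the latter overlapping saline. In female mice they summed to 675.2 to 742.5 CPM with oil and 594.8 to 737.8 CPM with 9500+oil. Females given oil, 9500+oil or 9527+oil thus lay below every saline female, whereas their kinesin sums overlapped saline. The part of these cells in the kinesin levels was not tested. The thymocyte list, of which 3 of 8 genes were tested, stayed at or under 25.8 CPM in every mouse, with *Ptcra* at 0 in all female saline mice. For the erythroid precursor list the 3 genes tested had a median of -0.67 with Corexit 9527. That list reached 71.6 CPM in female and 103.7 CPM in male Corexit 9527 mice, against 91.2 and 165.2 CPM with saline. The 7 neutrophil genes were all lower with Corexit 9527 (median -0.38), the 5 T cell genes had a median of -0.11, the 5 B cell genes -0.04, the 7 alveolar type 2 genes 0.11, the 5 alveolar type 1 genes -0.09, the 6 endothelial genes -0.31, the 5 genes of ciliated cells -0.12 and the 5 of cardiac muscle -0.50. In male mice the endothelial genes summed to 3350 to 3528 CPM with Corexit 9527, below the 4110 to 4628 CPM of saline. Their sums also lay below saline in oil, Corexit 9500 and 9527+oil males, whereas the female groups overlapped saline. With 9527+oil against Corexit 9527 the 6 macrophage genes were all lower (median -0.70, 4 at an unadjusted p under 0.05, against 8.73% of all genes). The 7 neutrophil genes were all higher (0.94, 3 at that p) and so were the 6 endothelial genes (0.48, 4 at that p), against 5.42% of all genes. None of these passed adjustment, but 4 macrophage, 2 neutrophil and 3 endothelial genes did without the 4 libraries, against 6.63% of all genes. Their part in the kinesin difference was not tested.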

How the data were processed

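RNA of the left lung of 36 mice was sequenced, 18 female and 18 male. According to the submitters' processing notes and the methods, the authors estimated transcript abundance with Salmon on GRCm38 and summarised it with tximport, and they deposited estimated counts per gene symbol, in 1 table per sex. The deposited values were already whole numbers, and rows with a sum under 10 do not occur in either table. Salmon shares reads among similar or overlapping transcripts, which can move a low level or set it to 0. The strand setting and the Salmon version are not given in the sources used here. Rows that share a name with another, 4 in the table of each sex, were left out (0.0103% of the female and 0.0128% of the male counts).

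Groups came from the sample labels, and nothing was pooled. Levels are CPM after TMM scaling within a table, and log2 CPM has a prior count of 2. Genes were tested with edgeR 4.0.16 (R 4.3.3) by the quasi-likelihood F-test after TMM and filterByExpr by sex and treatment, with Benjamini-Hochberg adjustment over all genes tested, using the mice compared and sex as a covariate where both sexes entered. This covariate was added to the pairwise comparisons of the study. SE and 95% intervals are those of the fit. The test was tested on simulated data first. The gene lists and members were chosen with earlier results of these data known. Named genes are the members, of each list the 2 with the smallest p with Corexit 9527 (lists of 5 or fewer whole), the 5 most alike by the lower of the correlations in the 2 sexes among genes of at least 1 CPM, and genes a count of 5 or fewer singles out. One gene that this rule names is not reported here. No overlap means that every mouse of 1 group lies beyond every mouse of the other within each sex. Alternatives were DESeq2 1.42.0, its size factors in edgeR, no filter, at least 10 counts in every mouse, limma 3.58.1 voom with sample quality weights, a fit of all 6 groups together, a fit without sex, and leaving out the 4 libraries with over 20% mitochondrial counts or each mouse in turn. Leaving out each mouse for 9527+oil against Corexit 9527 was added after seeing the data. At a depth of 17501180 to 30011557 counts, 3 counts are the limit that a count of 0 allows, and intervals of counts cover counting error only. Each mouse is a sample of its own by its label.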

Additional observations from a re-analysis of the deposited data

Results flagged for a closer look

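Over the 6 mice of a treatment, the log2 CPM of each kinesin was checked for a lone value whose gap to its neighbour exceeded Dixon's 95% critical share of the range of the group. Of 60 groups 8 were flagged, where chance flags about 1 in 20. Female saline mouse 3 was flagged for *Kif14*, *Kif20b* and *Kif22*, all listed at 0 counts and so at -3.53 log2 CPM, with the nearest mice at 0.39, 0.52 and 0.78. *Kif22* was flagged 2 more times, at -3.53 in female Corexit 9527 mouse 11 (0 counts, nearest mouse 1.91) and at -1.19 in female oil mouse 6 (nearest 1.02). *Kif11* was flagged in female 9500+oil mouse 14 for a high value, 3.20 against 1.96 in the nearest mouse. These 6 values come from the 4 libraries rich in mitochondrial transcripts, and the part of that in these values was not tested.

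The other 2 flags were in male Corexit 9527 mice. *Kif20b* was at -3.48 (0 counts) in mouse 11, with the nearest mouse at 1.11, in a library where 7 other kinesins were the highest of their group. *Kif15* was at 1.55 in mouse 12, with the nearest mouse at 2.53, and that mouse had the lowest level of 9 of the 10 kinesins in its group. No difference between the sexes passed an adjusted p of 0.05 for any kinesin (edgeR). At an unadjusted p under 0.05 there were 2 members for oil, 2 for 9527+oil, 1 for Corexit 9527, 1 for 9500+oil and 0 for Corexit 9500.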

How the results depend on the processing

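Every median kept its sign with Corexit 9527 against saline, Corexit 9500 against saline and 9527+oil against Corexit 9527 under all alternatives run, but the number of kinesins past an adjusted p of 0.05 did not hold. For Corexit 9527 over both sexes (1 as reported) it was 5 by DESeq2, 0 with DESeq2's size factors in edgeR, 0 with no filter, 9 with quality weights, 5 with all 6 groups in one fit and 8 without the 4 libraries, where 0.829%, 0.013%, 0.0113%, 5.2%, 0.666% and 2.13% of all genes passed. In males (0 as reported) it was 7 by DESeq2, 1 with no filter, 3 with at least 10 counts in every mouse, 3 with quality weights and 5 with all 6 groups in one fit (3.93%, 0.385%, 0.635%, 0.791% and 1.83% of all genes), and in females (0) it was 2 by DESeq2. DESeq2 gave 2 for oil and 3 for Corexit 9500 in males (both 0), where 1.25% and 0.324% of all genes passed. For Corexit 9527 against oil (0) it was 4 by DESeq2, 1 with quality weights and 1 with all 6 groups (0.573%, 0.306% and 0.0314% of all genes). For 9527+oil against Corexit 9527 (5) it was 7 by DESeq2, 6 with all 6 groups, 9 with quality weights and 9 without the 4 libraries (4.09%, 0.999%, 10.1% and 6.63% of all genes). Within the sexes (0 in both) it was 8 in females with quality weights (15.9%) and 2 in males with all 6 groups (0.458%). Without those libraries the female medians became -0.21 with oil and -0.00067 with 9500+oil (0.0096 with quality weights), and the median over both sexes of 9500+oil against Corexit 9500 became -0.69 (-0.65 with quality weights). The cause was not tested.

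When mice were left out 1 at a time, the count was 0 to 1 for Corexit 9527 over both sexes, 0 to 6 in males (6 without male Corexit 9527 mouse 12) and 0 to 9 for 9527+oil against Corexit 9527. The female medians ran from -0.28 to 0.22 with oil, 0.87 to 1.73 with Corexit 9527, -0.27 to 0.40 with 9500+oil and -0.41 to 0.068 with 9527+oil. The male medians ran from 0.72 to 1.19 with Corexit 9500, 0.13 to 0.51 with 9500+oil and 0.026 to 0.45 with 9527+oil. Of the 5 genes most alike, 1 remained without the 4 libraries and 2 with at least 5 CPM. No paired analysis was possible because treated and saline mice share no number in the labels, and the same number in the 2 sexes names different mice. Medians of 88 counts and 3 mice a group limit what a change in a single kinesin can show.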
